A study of Apis mellifera with 8 samples.

Results

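CSP3 (gene 406094), Obp2 (gene 406103) and Wat (gene 406065) are 3 honey bee genes named for antennal or chemosensory transcripts, and they are 3 of the 9161 genes that a reference table pairs with the measured transcripts. They were selected on their levels in queen against worker larval heads in these same libraries, after earlier results of the data were known. Their caste differences are therefore given as a description and carry no test. All 5 transcripts that RefSeq pairs with them were present, 1 each for CSP3 and Obp2 and 3 for Wat, and values per gene are sums over these.

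RNA was sequenced from the heads of individual Apis mellifera female larvae at 96 h, 4 future queens (96hQ) and 4 future workers (96hW), with 1 head per library. The castes differ in larval diet and rearing cell. They also differ in handling, since worker larvae were collected from comb frames and queen larvae were raised by grafting into queen cups. The labels name no other treatment, and the colony and genotype of each head are not given. The study asks which genes are differentially expressed between the castes at this age. As dissected, a larval head is the front end of the body. It holds the brain, developing antennae in pockets of the epidermis, mouthparts, glands, cuticle and some fat body, so every value is a mixture of tissues, and the antennae are imaginal tissue without adult function.

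Odorant-binding proteins (OBPs) and chemosensory proteins (CSPs) are small secreted proteins that carry hydrophobic molecules through the fluid around sensory neurons to membrane receptors. Many members of both families are also made outside sensory organs, in cuticle, glands and fat body. CSP3, also called ASP3c, was first isolated from bee antennae and binds fatty acids and their esters. Obp2, also called ASP2, is an antennal carrier of general odorants. Wat takes its name from a transcript described as enriched in the antennae of adult workers, and its molecular function is not stated in the sources used here.

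Estimated counts, the read numbers that kallisto assigned to each transcript, summed to between 22057972 and 23344818 per 96hQ library and between 19139730 and 21848474 per 96hW library. Transcripts paired with a gene held 78.1% to 81.0% of them. Counts were normalized by TMM (trimmed mean of M-values) and rescaled to the mean library total, and TPM (a gene's length-corrected share of the transcripts of a library) was used to compare levels between genes. Of 8151 genes tested with edgeR's quasi-likelihood test, 702 (8.61%) had an adjusted p under 0.01, 425 (5.21%) higher in 96hQ and 277 (3.40%) higher in 96hW. Throughout, a positive log2 fold change means higher expression in 96hQ. 96hQ replicate 3 and 96hW replicate 1 stood apart from the other heads of their caste. Comparing counts over genes, chi-square per degree of freedom was 159 to 270 between 96hQ replicate 3 and the other queen heads and 65.3 to 138 among those. It was 211 to 274 between 96hW replicate 1 and the other worker heads and 22.9 to 34 among those.

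CSP3 was expressed more highly in queen heads and was among the most abundant transcripts of the larval head in both castes. Normalized counts were 59971, 45574, 69109 and 56771 in 96hQ replicates 1 to 4 and 26057, 20935, 18704 and 23858 in 96hW replicates 1 to 4. The castes did not overlap, and the lowest queen head held 1.75 times the level of the highest worker head. The means were 57856 ± 9715 (SD, n = 4) in 96hQ and 22388 ± 3230 (SD, n = 4) in 96hW. The log2 fold change was 1.37 with a standard error of 0.16, a 2.58-fold higher level in 96hQ. Leaving out any 1 head gave log2 fold changes between 1.28 and 1.47, and leaving out 96hQ replicate 3 and 96hW replicate 1 together gave 1.36.

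On the TPM scale, CSP3 stood at 8229 ± 583 (SD, n = 4) in 96hQ and 3646 ± 649 (SD, n = 4) in 96hW. Within a head it ranked 4th to 9th of the 9161 genes in queens and 11th to 22nd in workers. The standard deviation of CSP3 on the log2 scale was 0.25 in 96hQ and 0.21 in 96hW. Medians over all genes tested were 0.18 and 0.13, so CSP3 varied somewhat more between heads of a caste than the middle gene did.

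Obp2 showed the opposite direction at a level near the limit of detection. Estimated counts were 1, 0, 1 and 1 in 96hQ replicates 1 to 4, and 26, 5, 19 and 17 in 96hW replicates 1 to 4. Every worker head was above every queen head, and 96hW replicate 2 was the lowest of the workers. The 0 in 96hQ replicate 2 allows up to 3 counts, or 2.58 normalized counts. Normalized counts averaged 0.747 ± 0.505 (SD, n = 4) in 96hQ and 17.5 ± 9.26 (SD, n = 4) in 96hW.

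Summed over the heads of a caste and corrected for library size, the ratio of Obp2 in 96hW to 96hQ was 24.6, with an exact binomial (Clopper-Pearson) 95% interval of 8.05 to 122 that covers counting error only. Only 3 counts stand behind the queen level. The fitted log2 fold change was -4.38 with a standard error of 0.71, and it depends on the prior count used for low values. On the log2(TPM + 1) scale, where a gene this low is drawn toward 0, it was -1.81. Obp2 met the minimum of 5 counts in 4 libraries only through the worker heads, so any tested value of it had to differ between castes.

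In TPM, Obp2 reached 5.51, 0.983, 3.50 and 3.02 in 96hW replicates 1 to 4 and at most 0.159 in 96hQ. Even in workers it was among the rarer transcripts of the head, ranking 6676th to 7589th of 9161 genes. In whole heads a smaller number of cells that express a gene and less RNA per cell cannot be told apart, which holds for each of the 3 genes.

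Wat was higher in queen heads, with more spread among them than CSP3. Normalized counts were 1645, 1552, 4286 and 3292 in 96hQ replicates 1 to 4 and 906, 843, 554 and 1100 in 96hW replicates 1 to 4. The castes did not overlap, but queen replicates 3 and 4 lay well above queen replicates 1 and 2, and the lowest queen head was only 1.41 times the highest worker head. The means were 2694 ± 1329 (SD, n = 4) in 96hQ and 851 ± 226 (SD, n = 4) in 96hW. The log2 fold change was 1.66 with a standard error of 0.37, a 3.17-fold higher level in 96hQ.

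The standard deviation of Wat on the log2 scale was 0.73 among queens, larger than that of 90.6% of the genes tested. Among workers it was 0.42, larger than that of 85.4%. In TPM the gene stood at 270 ± 109 (SD, n = 4) in 96hQ and 98.7 ± 24.7 (SD, n = 4) in 96hW. Without any 1 head the log2 fold change lay between 1.35 and 1.85, and without 96hQ replicate 3 and 96hW replicate 1 together it was 1.38.

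All 3 genes therefore kept the castes apart in 8 heads. Over all genes tested, 17.2% had every 96hQ head above every 96hW head and 14.7% the reverse. Because this contrast chose the genes, nothing is read from that count. Of the genes higher in queens, Wat had the larger fold change and the larger standard error, 0.37 against 0.16 for CSP3.

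**Figure D1:**
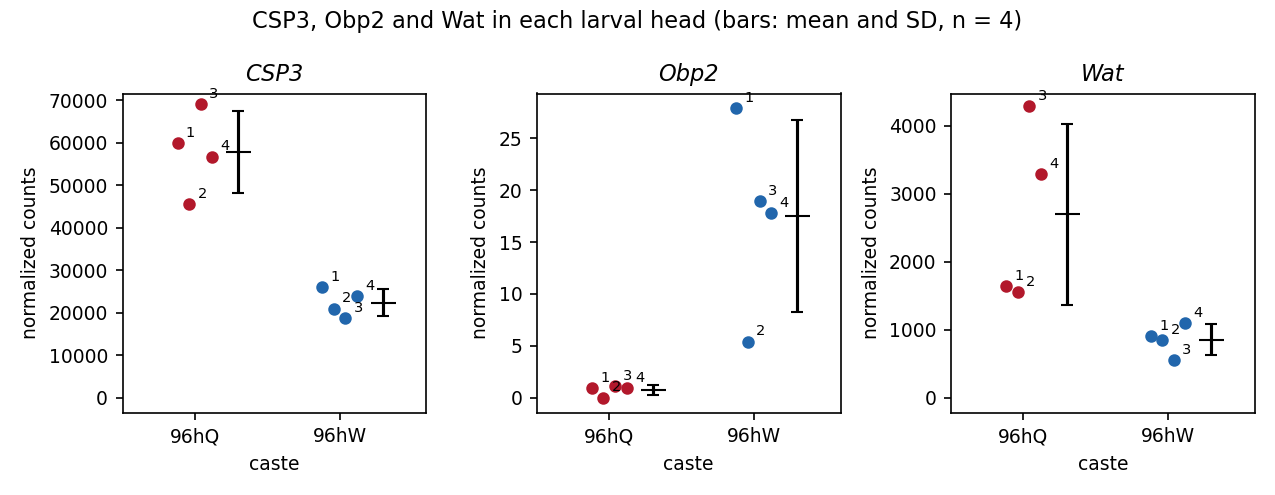
Normalized counts (vertical axis, linear) of CSP3, Obp2 and Wat in each larval head, by caste. Points are single heads with their replicate number, and black bars give the mean and SD of 4 heads. CSP3 and Wat are higher in every 96hQ head, Obp2 in every 96hW head, and 96hQ replicates 3 and 4 carry the highest Wat levels.

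Wat was the only one of the genes with several transcripts, and reads that fit more than 1 of them were divided by the authors' tool. NM_001011562, 863 bases long, stood at 69.5, 75.9, 234 and 198 TPM in 96hQ replicates 1 to 4 and at 53.1, 49.4, 34.8 and 56.6 TPM in 96hW replicates 1 to 4. XM_006562598, 767 bases long, stood at 95.7, 101, 129 and 151 TPM in 96hQ replicates 1 to 4 and at 58.5, 46.3, 27.5 and 60.03 TPM in 96hW replicates 1 to 4. XM_006562597, 655 bases long, did not exceed 10.1 TPM in any head. Each of the transcripts was higher in all queen heads than in all worker heads.

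The ratio of the mean TPM in 96hQ to that in 96hW was 1.58 on the log2 scale for NM_001011562, 1.31 for XM_006562598 and 1.59 for XM_006562597. The spread among queens did not fall evenly on the transcripts. NM_001011562 made up 62.8% and 55.9% of Wat TPM in 96hQ replicates 3 and 4, the heads with the highest totals, and 40.8% and 41.7% in 96hQ replicates 1 and 2. In workers its share lay between 46.4% and 54.2%, within the range of the queens, so the make-up of Wat by transcript overlapped between castes.

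**Figure D2:**
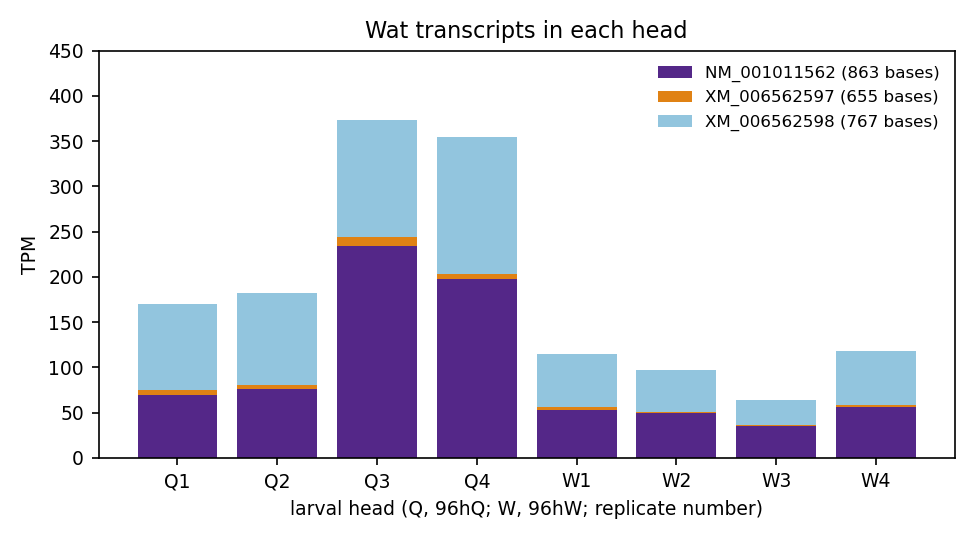
TPM of the Wat transcripts stacked for each larval head (Q, 96hQ; W, 96hW; number, replicate). In 96hQ replicates 3 and 4 NM_001011562 is the larger part of the total, and in 96hQ replicates 1 and 2 it is XM_006562598.

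The other OBP and CSP genes show whether the differences of CSP3 and Obp2 extended over their families. Of 22 others named in the reference table, 21 were measured, 2 of these (Obp18 and Obp19) had no counts in any head, and 13 had enough counts to test. None of the 13 passed the adjusted p threshold of 0.01 in edgeR's test, against 8.61% of all genes, and 3 had an unadjusted p under 0.05, against 41.0% of all genes. DESeq2 called 1 of them, Obp10, against 1900 of all 8151 genes. Limma on log2(TPM + 1) called 0 of them, against 234 of 8151. Log2 fold changes were positive for 5 and negative for 8, with a median of -0.49 beside 0.0046 over all genes tested.

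Among the OBPs other than Obp2, 7 of 9 tested had negative log2 fold changes, with a median of -0.49. Every worker head was above every queen head for Obp10 and Obp1, a pattern seen in 14.7% of all genes tested. Counting both directions, 2 of the 13 other OBP and CSP genes tested had no overlap, against 2599 of 8151 genes. Obp1, also called ASP1, binds components of the queen pheromone in adult antennae. It averaged 59.4 ± 23.7 normalized counts (SD, n = 4) in 96hQ and 116 ± 21.7 (SD, n = 4) in 96hW. Its log2 fold change was -0.96 with a standard error of 0.30, with an adjusted p of 0.0472 in edgeR's test. Obp10 had a log2 fold change of -0.49 with a standard error of 0.13 and an adjusted p of 0.0308 in the same test, and 0.00509 with DESeq2.

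Among the CSPs other than CSP3, 3 of 4 tested had positive log2 fold changes, with a median of 0.52, and all overlapped between castes. CSP2 had a log2 fold change of 0.77 with a standard error of 0.42, and 96hQ replicate 3 alone stood high at 1220 normalized counts. Without that head it was 0.13. CSP6 had a log2 fold change of 0.28 with a standard error of 0.55. It turned to -0.58 without 96hQ replicate 3, and CSP4, at 0.92, turned to -0.19 on the log2(TPM + 1) scale. A difference of CSP3 from CSP2, CSP4 and CSP6 was not tested.

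**Figure D3:**
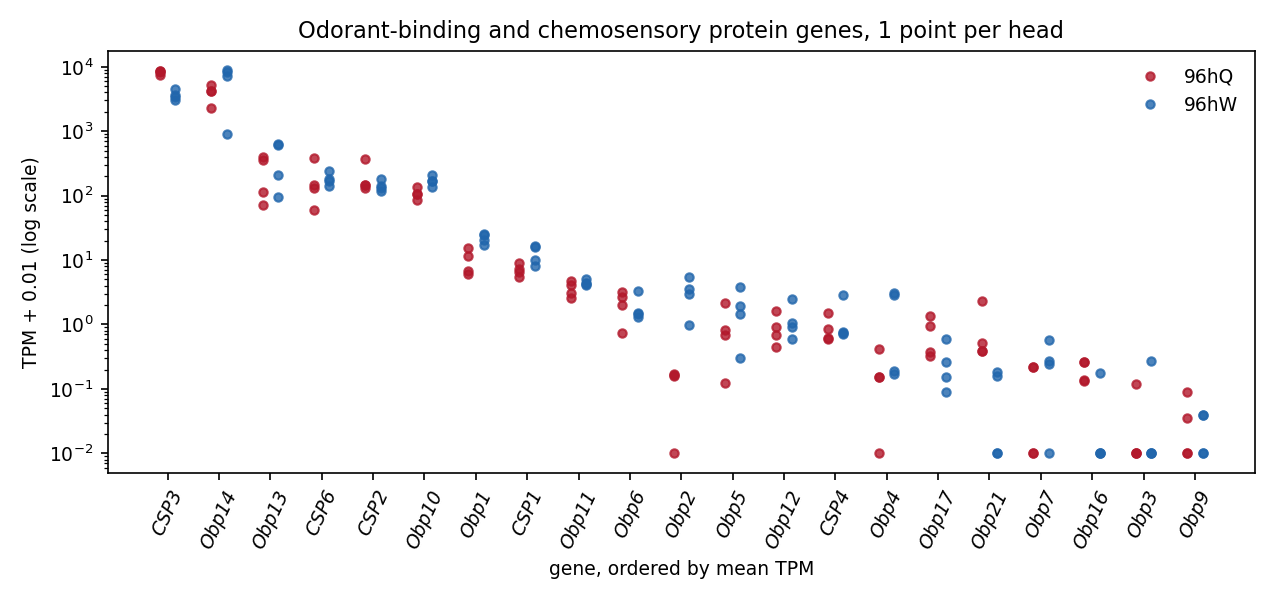
TPM + 0.01 on a log axis for each measured OBP and CSP gene with any reads, ordered by mean TPM, 1 point per larval head. CSP3 and Obp14 lie far above the rest, Obp2 is low in all heads with its queen points below its worker points, and most other genes overlap between castes.

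CSP3 and Obp14 together made up most of the OBP and CSP transcripts of every head. Obp14, a carrier also made outside antennae, stood at 3996 TPM on average in 96hQ and 6300 in 96hW. It ranged from 2279 to 5178 TPM in queens and from 7134 to 8945 TPM in 3 workers, while 96hW replicate 1 held 892 TPM. The castes overlapped through that 1 head, and the log2 fold change of -0.51 had a standard error of 0.62 and an adjusted p of 0.568 in edgeR's test. Without 96hW replicate 1 it was -0.88 with an adjusted p of 0.0473, and without 96hQ replicate 3 as well it was -1.004 with 0.0328, neither under 0.01.

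CSP3 took 75.8%, 55.1%, 61.9% and 63.1% of the summed OBP and CSP TPM in 96hQ replicates 1 to 4. In 96hW replicates 1 to 4 it took 73.7%, 28.8%, 23.3% and 28.7%. CSP3 was thus above Obp14 in 4 of 4 queen heads and in 1 of 4 worker heads, 96hW replicate 1. In that head the sum was 6191 TPM, against 11712 to 13128 TPM in the other workers and 11143 to 13708 TPM in queens, and its own CSP3 level of 4563 TPM was the highest among workers. Summed TPM of 6 fat body genes (Vg, Hex70a, HEX70b, Hex70c, Hex110 and Tsf1) moved with Obp14, at 7623 in that head, 53421 to 62769 in the other workers and 7778 to 19027 in queens. Of the 6, Vg and Hex70a passed with higher expression in 96hW, against 3.40% of all genes, and the median log2 fold change was -2.45. The fat body's part in these shares was not tested.

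Other carriers overlapped between castes or had too few counts to test. Obp13 ranged from 70.85 to 400 TPM in 96hQ and from 97.0 to 628 TPM in 96hW, with a log2 fold change of -0.61 and a standard error of 0.67. CSP1, at 6.61, 5.42, 7.18 and 9.10 TPM in 96hQ replicates 1 to 4, overlapped with its 8.11 to 16.7 TPM in 96hW. Obp21 had too few counts to test, at 0.373 to 2.29 TPM in 96hQ and at most 0.170 TPM in 96hW.

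Most odorant and gustatory receptors that could be matched by symbol or synonym had too few counts to test. Of 36 genes named as odorant or gustatory receptors, 35 were measured, 6 had no counts in any head and 4 could be tested. In edgeR's test 0 of these 4 passed, against 8.61% of all genes, with 2 at an unadjusted p under 0.05, against 41.0%. DESeq2 and limma on log2(TPM + 1) also called 0, against 1900 and 234 of all 8151 genes. No receptor of this list exceeded a mean of 1.71 TPM, that of Or63, which held 22.0 to 68.6 normalized counts over the 8 heads. In normalized counts every queen head was above every worker head for Or63, as for 17.2% of all genes tested. Its adjusted p was 0.0694 in edgeR's test. In TPM the castes overlapped, at 1.74 to 2.40 in 96hQ and 0.764 to 2.04 in 96hW. Or2, the Orco co-receptor that most odorant receptors need in order to reach the membrane, did not exceed 2.23 normalized counts in any head. CSP3 was abundant in the same libraries.

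The 3 genes lie on different linkage groups, and the 3 genes on each side of each were taken from the order of the reference table. Of these 18 neighbours 15 were measured and 9 tested. Among the 9, 1 passed, which is close to the share of 8.61% of all genes. The gene that passed was LOC724561, which lies between CSP3 and CSP4 and whose span does not overlap that of CSP3. Its normalized counts were 390, 433, 586 and 425 in 96hQ replicates 1 to 4 and 162, 184, 128 and 182 in 96hW replicates 1 to 4. No queen head overlapped with a worker head. The log2 fold change was 1.48 with a standard error of 0.17 and an adjusted p of 0.00166 in edgeR's test.

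LOC724561 stood at 458 ± 86.9 normalized counts (SD, n = 4) in 96hQ against 57856 for CSP3. The log2 fold change of CSP3 was 1.37, but CSP3 was chosen on this contrast, so nothing is read from the likeness of the 2 values. On the other side of CSP3, LOC102656134 had a log2 fold change of -0.02 with a standard error of 0.05. CSP4, the next gene beyond LOC724561, did not pass, with an adjusted p of 0.185 in edgeR's test. Beyond it, LOC102656275 had a log2 fold change of -0.21 with a standard error of 1.25.

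Obp2 lies in a run of OBP genes in the order Obp5, Obp6, Obp2, Obp7, Obp3, Obp4. Obp5 had 5.66, 6.03, 1.12 and 16.7 normalized counts in 96hQ replicates 1 to 4, and 25.8, 2.16, 14.0 and 11.5 in 96hW replicates 1 to 4. Obp4 had at most 2.83 normalized counts in 96hQ, and 17.2, 1.08, 17.0 and 1.05 in 96hW replicates 1 to 4. Both overlapped between castes. Worker replicate 1, which stood apart from the other workers, was above worker replicate 2 in Obp2, Obp4, Obp5, Obp6 and Obp7. Obp3 had 0 in both heads. These levels rest on few counts, and the share of all genes with this order was not computed, so nothing is read from it.

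Obp5 had a log2 fold change of -0.82 with a standard error of 0.78, and Obp6 one of 0.53 with a standard error of 0.36, neither past the threshold. Obp4, Obp7 and Obp3 had too few counts to test. Obp2 had every worker head above every queen head, as did 14.7% of all genes tested. It was selected on this contrast, so nothing is read from its standing beside the other genes of the run. In the reference table the span of LOC727000 overlaps that of Obp2. LOC727000 was not analysed here, and whether reads counted for Obp2 came from it was not tested.

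Beside Wat, LOC408534 had a log2 fold change of 1.16 with a standard error of 0.42 and an adjusted p of 0.0751 in edgeR's test, with 58.6 to 158 normalized counts in 96hQ and 26.9 to 80.5 in 96hW. LOC551957 and LOC102655762 had log2 fold changes of 0.17 and -0.50 with standard errors of 0.38 and 0.74. LOC107965630, LOC107965631 and LOC107965567 had too few counts to test. None of the tested neighbours of Wat passed.

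**Figure D4:**
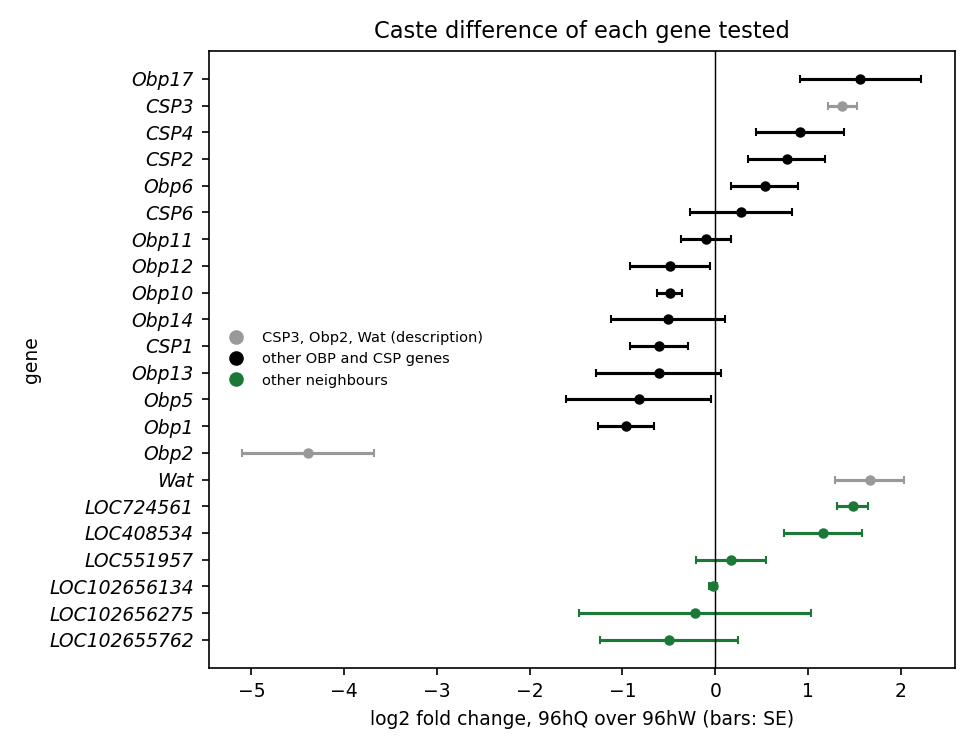
Log2 fold change of 96hQ over 96hW with its standard error for CSP3, Obp2 and Wat (grey), the other tested OBP and CSP genes (black) and the other tested neighbours (green). LOC724561, the neighbour of CSP3, is the only black or green point past the adjusted p threshold of 0.01.

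Summed levels of some lists of tissue marker genes differed between castes along with these genes. Whether the mixture of tissues differed was not tested. A cuticle list of 28 genes was matched by symbol prefixes, which also took in Apid1, an antimicrobial peptide gene. Its summed TPM was 92760, 76646, 144819 and 100776 in 96hQ replicates 1 to 4. In 96hW replicates 1 to 4 the sum was 39173, 37909, 25106 and 42876. On the same TPM scale CSP3, Wat and the cuticle sum were all lowest in replicate 3 among workers. Among queens the cuticle sum shared its lowest head, replicate 2, with CSP3 and its highest head, replicate 3, with Wat, whereas CSP3 was highest in replicate 4 and Wat lowest in replicate 1. Of 26 genes of this list tested, 6 passed with higher expression in 96hQ, against 5.21% of all genes. In the other direction 0 passed, against 3.40%, and the median log2 fold change of the list was 0.94. The part of cuticle and epidermis in the levels of CSP3 and Wat was not tested.

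The summed TPM of the neuronal genes was higher in every worker head than in every queen head. TPM is a share of each library, and on the log2(TPM + 1) scale the median log2 fold change of all genes tested was -0.14. In edgeR's fit to counts the median of the neuronal list was -0.70. Summed TPM of 18 genes for synapse proteins, channels and transmitter receptors lay between 129 and 192 in 96hQ and between 261 and 324 in 96hW, and no gene of the list was at 0 in all heads. Among workers the sum and the TPM of Obp2 were both highest in replicate 1 and next highest in replicate 3. The sum was lowest in replicate 4 and Obp2 in replicate 2. Of the 18, 4 (nAChRa8, nAChRa3, NLG-3 and GluCl) passed with higher expression in 96hW, against 3.40% of all genes, and 0 in the other direction, against 5.21%. Summed TPM of Dll and Antp, the measured genes of a list for appendage development, overlapped between castes, at 29.3 to 45.6 in 96hQ and 43.0 to 51.7 in 96hW. Dll, which specifies distal parts of appendages, passed with higher expression in 96hW, at a log2 fold change of -0.61 with a standard error of 0.07 and an adjusted p of 0.00191 in edgeR's test, and Antp did not pass. The part of neuronal or antennal tissue in the level of Obp2 was not tested.

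Most other lists overlapped between castes. Summed TPM of 7 troponin genes of muscle lay between 2864 and 6394 in 96hQ and between 4005 and 7458 in 96hW. The 4 fibroin genes of the silk gland stayed between 5.005 and 9.97 summed TPM over all heads. Dscam with PPO, the measured genes of a list for haemocytes, lay between 19.7 and 113, and Dscam is not specific to haemocytes. Of 6 genes of moulting and hormone response, 1 (Kr-h1, a factor induced by juvenile hormone) passed with higher expression in 96hQ, against 5.21% of all genes, and the summed TPM overlapped. Eaat-2, the 1 glial gene measured, stood at 13.9 to 32.0 TPM in 96hQ and 34.8 to 40.5 TPM in 96hW, without overlap, and did not pass.

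CSP3, Obp2 and Wat all have short transcripts. The 1360 genes tested whose longest transcript was at most 1000 bases had a median log2 fold change of 0.18, beside 0.0046 over all genes. CSP3 and Wat lay above that median and Obp2 below it, but the genes were chosen on this contrast, so nothing is read from their place. The part of transcript length in the caste differences was not tested.

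The genes most like CSP3 over the 8 heads were sought by the root mean square difference of log2 CPM, each gene centred on its own mean, among 7067 genes with at least 50 normalized counts on average. CytC, which encodes the electron carrier cytochrome c, was closest at 0.16, followed by LOC410915 at 0.19 and LOC100576446 at 0.20. The deviation of CSP3 from its own mean was 0.71 by the same measure. CytC had 9557, 9406, 12827 and 9406 normalized counts in 96hQ replicates 1 to 4 and 4336, 4265, 4083 and 4123 in 96hW replicates 1 to 4. CSP3 and CytC shared the higher level in queens and the peak in 96hQ replicate 3. These profiles include the caste difference on which CSP3 was selected.

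For Wat the closest were LOC552276 at 0.24, LOC413481 at 0.25 and C1q-VP, named for a venom protein, at 0.25, against a deviation of 0.94 for Wat itself. C1q-VP had 4918, 4935, 11038 and 6044 normalized counts in 96hQ replicates 1 to 4 and 2311, 2249, 1884 and 2793 in 96hW replicates 1 to 4. Like Wat, it was highest in queen replicates 3 and 4 and lowest in worker replicate 3. For Obp2 no gene came closer than LOC410499 at 0.62, against a deviation of 1.45 for Obp2 itself, and the next were LOC726441 at 0.79 and LOC410757 at 0.80.

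With each gene centred on its mean in each caste, which takes the caste difference out, other genes were closest. LOC409852, LOC102654905 and LOC102656010 followed CSP3 at 0.05 to 0.06, against a deviation of 0.20. CPR19, a cuticle protein gene, followed Wat at 0.17, with Grp and LOC410021 at 0.18, against a deviation of 0.51. CPR19 had 166, 142, 341 and 277 normalized counts in 96hQ replicates 1 to 4 and 210, 233, 132 and 364 in 96hW replicates 1 to 4, so it shared the order of Wat among queens but not its caste difference. LOC408278, LOC409937 and LOC411176 were the closest to Obp2, whose deviation of 0.56 rests on few counts.

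**Figure D5:**
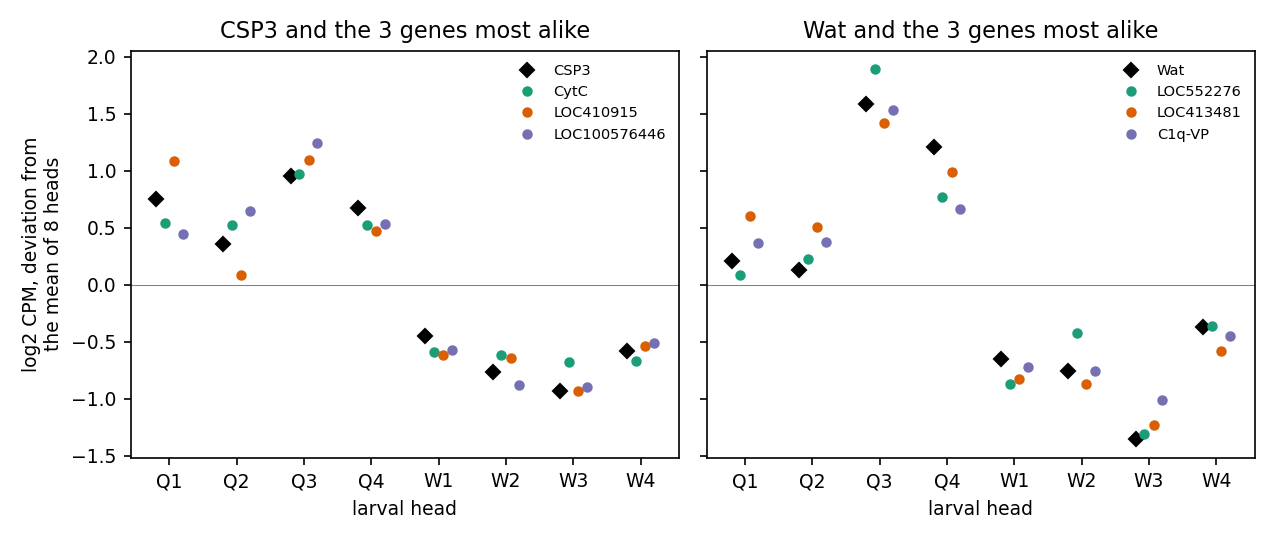
Log2 CPM of CSP3 and of Wat (black diamonds) and of the 3 genes most like each (circles) in the 8 heads, as deviation from each gene's mean over the heads. All lie above 0 in the 96hQ heads (Q1 to Q4) and below 0 in the 96hW heads (W1 to W4), and the Wat panel peaks at Q3.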

How the data were processed

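Libraries were poly(A)-selected, strand-specific and paired-end, from individual heads of 4 96hQ and 4 96hW larvae. The authors mapped reads with kallisto, as the submitters' processing notes and the paper state, and its version is not given in the sources used here. The deposited files hold estimated counts per transcript, not normalized between libraries, TPM scaled by the authors' tool, and the deposited transcript lengths (another unit, bases). The transcripts carry RefSeq accessions. They were paired with genes by accession without its version through the table of assembly Amel_HAv3.1, used for names and gene order only. It paired 17723 of 28739 transcripts (61.7%). Unpaired transcripts enter no sum.

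Estimated counts were summed per gene, rounded to whole numbers and normalized by TMM. Genes with at least 5 counts in at least 4 libraries were compared between castes, with no other term, by the quasi-likelihood F test of edgeR 4.0.16 (R 4.3.3). P-values were adjusted over all genes tested by the Benjamini-Hochberg method, with the study's threshold of 0.01. The study itself used sleuth, which was not run here. Standard errors are the log2 fold change divided by the root of F. Log2 CPM used a prior count of 2. The script was tested on simulated data. No pair of libraries of 1 caste agreed within sampling noise (chi-square per degree of freedom of at least 22.9). At these depths counting error matters only for rare genes such as Obp2, and floors and intervals cover that error only.

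CSP3, Obp2, Wat and all gene lists were chosen with earlier results of these data known. Lists were formed by gene symbol or synonym. Besides the 3 genes, the text names the 6 most abundant other OBP and CSP genes and any that passed, the 3 neighbours on each side, and the 3 genes most alike. Obp11, Obp18, Obp19, Obp21, CSP1, Or63 and single marker genes are named outside these rules, after their values were seen. Alternatives were other size factors and count filters, DESeq2 1.42.0, limma 3.58.1 on log2(TPM + 1), an adjusted p threshold of 0.05, a block for the replicate number, and the omission of each head in turn. Leaving out 96hQ replicate 3 with 96hW replicate 1 was added after seeing the data.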

Additional observations from a re-analysis of the deposited data

Results flagged for a closer look

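Among 50 groups of 4 heads checked for a head far from the other heads of its caste (Dixon's criterion, 95% level, which chance alone passes in about 1 in 20 groups), 5 stood out, in 3 libraries. Obp2 had 0 normalized counts in 96hQ replicate 2 and 0.927 in the nearest queen head, a distance of about 1 read. Wat transcript XM_006562597 reached 10.1 TPM in 96hQ replicate 3, with 5.21 in the nearest queen head, and CSP2 reached 1220 normalized counts in the same head, with 384 in the nearest. CSP4 reached 34.5 normalized counts in 96hQ replicate 2, with 18.996 in the nearest queen head. Obp6 reached 20.4 normalized counts in 96hW replicate 1, with 11.5 in the nearest worker head.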

How the results depend on the processing

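CSP3 and Wat kept their direction under all 16 alternatives, with log2 fold changes of 1.19 to 1.47 and 1.35 to 1.85. Obp2 kept its direction in the 15 that gave a value. It lay between -4.68 and -3.98 with 1 head left out and at -1.81 with limma on log2(TPM + 1), and had no value with at least 10 counts required in every library. The number of genes called, 702, was 1900 with DESeq2, 234 with limma on log2(TPM + 1), 2189 at an adjusted p under 0.05 and 145 to 778 with 1 head left out, lowest without 96hW replicate 3. It was 466, 347 and 239 without 96hQ replicates 1, 2 and 4, and 406, 200 and 185 without 96hW replicates 1, 2 and 4. On the log2(TPM + 1) scale the median of all genes was -0.14, and 38.0% of calls were higher in 96hQ, against 60.5%. The other OBP and CSP genes called were 1 with DESeq2, 2 at an adjusted p under 0.05 (Obp10 and Obp1) and 0 with any 1 head left out. LOC724561 was called with any 1 head left out, at log2 fold changes of 1.35 to 1.55.

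Replicate numbers did not pair the heads: same-numbered heads had correlations of 0.0977, 0.0146, -0.037 and -0.0523 in their deviations from the caste means, and 2 of 8 heads correlated best with their own number. With the replicate number as a block, 10 genes were called and 0 neighbours, and LOC724561 had a log2 fold change of 1.47 with an adjusted p of 0.019.

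Some genes that were not called changed sign, and the cause was not tested. CSP6 was -0.32 with limma on log2(TPM + 1), -0.11 with the block and -0.61 without 96hQ replicate 3 and 96hW replicate 1 together. CSP4 was -0.19 with limma on log2(TPM + 1), and Obp5 was 0.029 without those same 2 heads. With 1 head left out CSP6 ranged from -0.58 to 0.57, Obp11 from -0.26 to 0.023, LOC102656134 from -0.04 to 0.0036, LOC102656275 from -2.15 to 0.23 and LOC551957 from -0.072 to 0.49.

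The depth limits Obp2 most, since 3 reads stand behind its queen level. Each caste has 4 heads, and age within the stage, dissection and library preparation cannot be told apart from the difference between animals. Transcripts without a paired gene, and OBP, CSP or receptor genes without a family symbol or synonym, were not analysed here.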
